A study of Homo sapiens with 23 samples.

Results

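The 58 genes of the G2 to M transition and of mitosis were followed in the polysomal mRNA of 2 lines of diffuse large B-cell lymphoma (DLBCL). They were chosen by name, as the cyclins, kinases, motors and chromosome proteins that carry a cell into and through division, and the probes of the array were matched to them by gene symbol. The choice was made with earlier results of these data known. The detection p of a probe sets its signal against the negative controls of its array, and probes at 0.02 or less on all arrays of some group were kept. All 58 genes had a kept probe, with 87 of their 94 probes kept, and they made 58 of the 14636 entries tested (an entry is a gene, or a probe that carries no single gene symbol).

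SUDHL-2 is a line of the activated B-cell-like type and SUDHL-4 of the germinal center B cell-like type, and each line was a single established culture line. Cells were given 40 nM INK128, an ATP-competitive inhibitor of the mTOR kinase, for 24 h with 0.01% DMSO as the control, or 20 mM EtOH for 48 h with water as the control. RNA of the heavy polysomes, which are mRNAs carrying many ribosomes, was pooled from gradient fractions 9 to 11 and hybridised to Illumina HumanHT-12 BeadChips. The 23 arrays fell into 8 groups of 3, except SUDHL-2 with EtOH, which had 2. The EtOH cultures were kept in sealed flasks, and the sources used here do not state whether the water controls were sealed too. The arrays held only polysomal RNA, so a change in how many ribosomes an mRNA carried and a change in how much of it the cell held cannot be told apart in any value here, nor can fewer dividing cells and less mRNA per dividing cell. Equal amounts of RNA (0.5 µg) were labelled, so a fall of the whole polysomal pool would not show either. The design gives the replicates as independent, and the small number of arrays limits the precision of each value.

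Entry into mitosis is set by the kinase CDK1 bound to cyclin A or B, which the CKS subunits help to dock on its substrates. Aurora and Polo-like kinases then build the spindle, kinetochores attach chromosomes to it, and the spindle checkpoint holds back the anaphase-promoting complex (APC/C) until all are attached. The APC/C, through CDC20, has securin and cyclin B destroyed, which frees separase to cut cohesin and lets the cell divide. Most of these genes are transcribed late in the cell cycle by MYBL2 and FOXM1 acting with the MuvB complex, so their mRNA is commonly used as a measure of how many cells of a culture are dividing. B-cell lymphoma lines divide fast and express the whole set.

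The promoters shared letters that the choice of the genes did not use. In the RefSeq promoter windows (GRCh38.p14, 250 bases before to 50 after the start of transcription) 49 of the 58 genes had at least 1 window. These genes had 57 windows. The cell cycle genes homology region, searched on both strands as TTTGAA or TTCGAA, was found in 37 of the 57 (64.9%), against 16.4% of all 35116 windows, and for 35 of the 49 genes. The CCAAT box, also searched on both strands, was found in 39 windows (68.4%), against 34.6% of all windows, and 27 windows (47.4%) had both, against 6.38% of all. The first is the letter sequence that LIN54 of MuvB binds and the second that of NF-Y, and a match in these windows describes the letters only. The sites of 8 genes on which the results below turn are shown, as the letters that the windows of the changed genes could be compared by, with the region's letters in capitals, 5′ to 3′ on the strand of the gene:
CKS1B, chr1:154974639-154974668, plus strand: gcgggcggcgtgTTTGAAagcgaggccaaa
CKS2, chr9:89311154-89311183, plus strand: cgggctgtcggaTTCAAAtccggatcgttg
CENPA, chr2:26786026-26786055, plus strand: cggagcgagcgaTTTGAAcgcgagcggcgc
TOP2A, chr17:40418073-40418102, minus strand: cgagtggtgcctTTTGAAgcctctctagtc
ESPL1, chr12:53268256-53268285, plus strand: cagccgcggataTTTGAAaggagggtctgg
KIF4A, chrX:70290058-70290087, plus strand: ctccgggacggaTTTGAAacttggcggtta
CDC20, chr1:43358904-43358933, plus strand: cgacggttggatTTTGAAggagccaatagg
CDCA3, chr12:6851272-6851301, minus strand: cgtggcgggaagTTTGAAactggtaacttc
In CKS2 the letters lie in the reverse direction (TTCAAA). TOP2A and CDC20 each had another site in the reverse direction, at -151 and -178 bases from the start, which is not shown. The windows of CENPF, CDCA8, PRC1 and KIF23, which were called in at least 1 comparison, held the region too and are not shown. The windows of SPC24, CCNA2, KIF2C, NCAPH, STMN1, TACC3, MYBL2, AURKB, CENPE, KIF20A and UBE2S, which also passed the test in at least 1 comparison of treatments, held neither form of the region. The letters were present both in the windows of genes that fell with INK128 (CKS1B, CKS2) and of genes that rose with it (CENPA, TOP2A).

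Levels are log2 signals turned into Z-scores array by array and rescaled with the arrays' mean SD (2.03), so that 0 is the mean kept probe of an array and a difference of 1 is a doubling on this scale. Between 14699 and 17098 probes were detected on an array (median 15360), and arrays of 1 group correlated at 0.96 to 1.00 (lowest 0.959, SUDHL-2 with INK128). Of the 58 genes, 55 were detected on all 23 arrays. The other 3 (MYBL2, NCAPH and UBE2S) lay near the detection limit. The subtype markers matched the labels in part. With DMSO, IRF4 and BATF of the activated type stood at 2.75 each in SUDHL-2 and at -1.90 each in SUDHL-4, while FOXP1 hardly differed (-1.67 and -1.65). SERPINA9, MME, MYBL1 and BCL6 of the germinal center type had the higher mean in SUDHL-4 (SERPINA9 1.32 against -1.98), but LMO2 had the lower one (1.08 against 3.05). Of the B-cell markers measured, CD79A (2.62 against -0.31), CD79B and CD22 were higher with DMSO in SUDHL-4, and MS4A1 was lower (0.12 against 1.16). The T-cell markers CD3D, CD3E and CD3G had no kept probe, and CD2 stayed between -1.87 and -1.49 in the 8 groups. Of the myeloid markers CD14 lay between -2.06 and -1.85, LYZ between -1.98 and -1.08 and CD68 between -0.67 and 0.43, none of the measured T-cell or myeloid markers was called in any of the 4 treatment comparisons, and the part of such cells in the results was not tested.

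With INK128 in SUDHL-2, 1 gene of 58 rose (CENPA) and none fell at an adjusted p under 0.05 (limma, Benjamini-Hochberg over all entries), where 2.15% of all entries rose and 1.47% fell (3.62% in all). In SUDHL-4 the inhibitor raised 2 (CENPF, TOP2A) and lowered 5 (CKS2, CKS1B, SPC24, MYBL2, CCNA2), 7 of 58 (12.1%), where 8.27% of all entries rose and 7.17% fell (15.4% in all). EtOH in SUDHL-2 raised 11 (ESPL1, TACC3, FOXM1, KIF2C, KIF4A, NCAPH, CDCA3, CDCA8, CENPE, AURKB, PRC1) and lowered 3 (STMN1, SPC24, KIF23), 14 of 58 or 24.1%, where 8.94% of all entries rose and 7.24% fell (16.2% in all). EtOH in SUDHL-4 gave no call among the 58, with 0.307% of all entries higher and 0.082% lower (0.389% in all). No gene was called in the same direction in both lines with either agent. SPC24 was the only gene called lower with both agents, in SUDHL-4 with INK128 and in SUDHL-2 with EtOH.

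As a group the genes stayed near 0. The median log2 fold change of the 58 was -0.02 with INK128 in SUDHL-2 (all entries 0.03), -0.12 in SUDHL-4 (all entries -0.06), 0.15 with EtOH in SUDHL-2 (all entries 0.05) and -0.05 in SUDHL-4 (all entries -0.03). Single arrays moved these counts. With INK128 the 1 gene in SUDHL-2 became 0 without any 1 of 8 arrays (all 6 DMSO arrays, SUDHL-2 INK128 replicate 3 or SUDHL-4 INK128 replicate 2) and 3 without SUDHL-2 INK128 replicate 1. The 7 in SUDHL-4 became 4 without SUDHL-4 DMSO replicate 3 or SUDHL-4 INK128 replicate 1, 12 without SUDHL-2 INK128 replicate 3 and 14 without SUDHL-2 INK128 replicate 1, the lines sharing 1 estimate of the spread. With EtOH the 14 in SUDHL-2 became 7 without either EtOH array of that line, and the 0 in SUDHL-4 became 1 without SUDHL-2 water replicate 2. With the replicate number as a block the EtOH counts were 20 by the titles and 22 by the sample names in SUDHL-2, and in SUDHL-4 they were 1 and 0. The share of all entries called with the block was not counted, so these counts cannot be set against the shares above. The treated and control arrays did not overlap for 5 genes with INK128 in SUDHL-2 (5 higher, 0 lower), against 9.07% of all entries higher and 7.99% lower (17.1% in all), and for 25 in SUDHL-4 (7 higher, 18 lower), against 18.3% higher and 18.3% lower (36.6% in all). With EtOH they did not overlap for 28 genes in SUDHL-2 (21 higher, 7 lower), against 23.3% higher and 14.8% lower (38.1% in all), and for 17 in SUDHL-4 (5 higher, 12 lower), against 12.1% higher and 24.6% lower (36.6% in all). The share of higher and lower calls moved with the scaling of the arrays. Median centring in place of the Z-score gave 0 higher and 10 lower with INK128 in SUDHL-4, where it also took the share of higher calls among all entries from 53.5% to 34.5%, and 14 higher and 1 lower with EtOH in SUDHL-2 (63.6% higher among all entries, from 55.3%). With INK128 in SUDHL-2 it gave no call (45.4% higher among all entries, from 59.4%). All 4 medians kept their sign under quantile normalization, median centring and a Z-score over all probes, but some came close to 0 or to all entries. With INK128 in SUDHL-2 the median was -0.002 under quantile normalization (all entries 0) and -0.007 under a Z-score over all probes (all entries 0.009). With EtOH in SUDHL-4 it was -0.068 under median centring, where all entries stood lower, at -0.075.

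**Figure D1:**
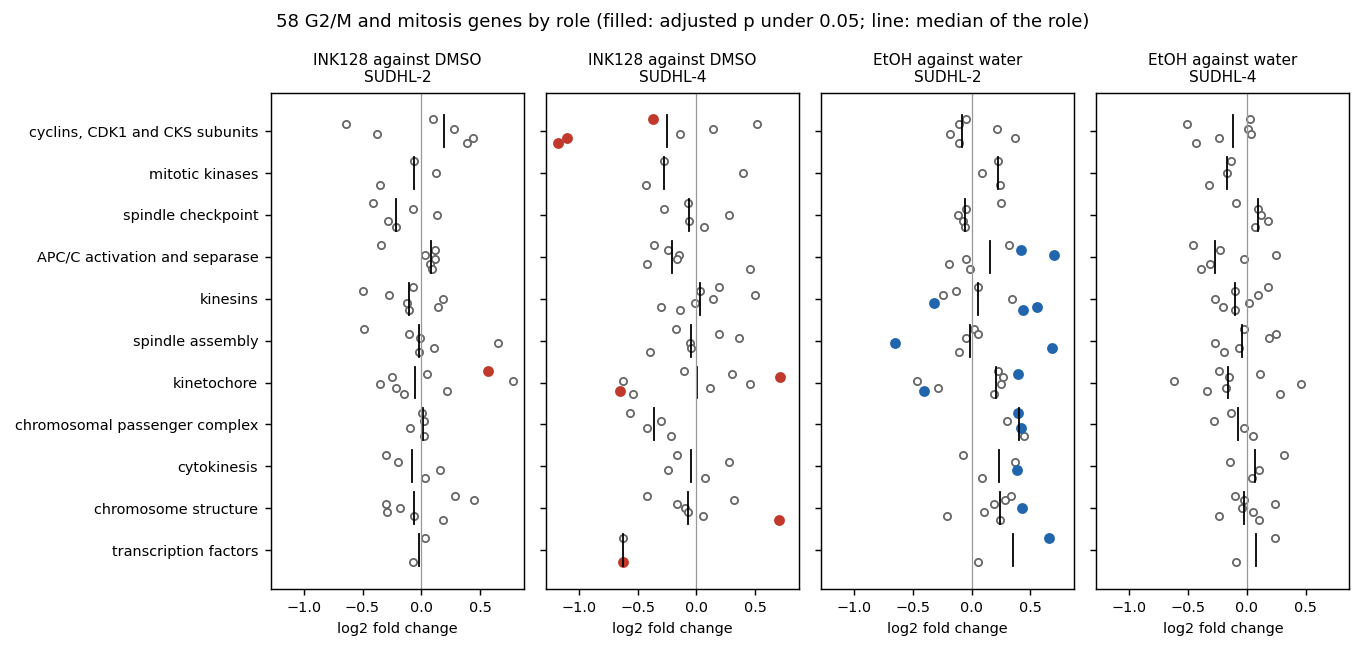
Log2 fold change (x axis) of each of the 58 genes, grouped by role (y axis), for INK128 against DMSO and EtOH against water in each line. Filled points had an adjusted p under 0.05 and the vertical lines are the medians of the roles, and the falls of CKS1B (-1.10) and CKS2 (-1.18) in SUDHL-4 lie farthest from 0.

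The CKS subunits gave the largest change of all 58 genes. CKS2 read 4.61, 4.48 and 4.81 on the DMSO arrays of SUDHL-4 and 3.66, 3.32 and 3.38 on the INK128 arrays, with a wide gap between the groups. That is a fall by 1.18 on the log2 scale (SE 0.19, adjusted p = 0.00156), or 2.26-fold, and both of its probes fell, by 1.36 and 1.00. CKS1B, whose protein also serves as a cofactor in the destruction of the CDK inhibitor p27, read 3.58, 3.72 and 3.82 with DMSO and 2.83, 2.61 and 2.38 with INK128. It fell by 1.10 (SE 0.26, adjusted p = 0.0132), or 2.14-fold, again on both probes (-1.12 and -1.08). The call of CKS1B was lost without SUDHL-4 DMSO replicate 3 (adjusted p = 0.0522) and without SUDHL-4 INK128 replicate 3 (adjusted p = 0.0562), and with no detection filter (adjusted p = 0.103). That of CKS2 held under all 26 refits, by which is meant here and below each alternative processing, model or set of arrays. It also passed the thresholds of the study's methods, a looser p with a floor on size, as did CKS1B. As applied here, that floor is relative to the SD of all fold changes of a comparison, so it differs between comparisons.

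In SUDHL-2 neither subunit passed the test with INK128. CKS2 read 4.25, 4.93 and 4.92 with DMSO and 5.04, 4.86 and 5.35 with INK128 (0.39, SE 0.19, adjusted p = 0.33), and CKS1B read 3.98, 5.01 and 4.81 with DMSO and 4.83, 4.74 and 5.55 with INK128 (0.44, SE 0.26, adjusted p = 0.431). The groups overlapped for both genes. The lines differed in the response by 1.56 for CKS2 (SE 0.27, adjusted p = 0.0109) and by 1.54 for CKS1B (SE 0.37, adjusted p = 0.0363). Among all entries 2.19% had the higher response in SUDHL-2 and 2.14% the lower (4.32% in all), and 4 of the 58 genes did, each with the higher value in SUDHL-2. The count of 4 became 2 without SUDHL-2 DMSO replicate 1 or SUDHL-4 INK128 replicate 3 and 1 without SUDHL-2 DMSO replicate 3 or SUDHL-4 DMSO replicate 2 or 3. Under median centring it stayed at 4, all higher, while the share of higher values among all entries called went from 50.6% to 70.4%. For CKS1B this difference was lost when any 1 of 9 arrays was left out (highest adjusted p = 0.0963, without SUDHL-4 DMSO replicate 3), the 9 being all but SUDHL-2 DMSO replicate 2 and SUDHL-2 INK128 replicates 1 and 2. It was also lost with no detection filter (adjusted p = 0.185), a Z-score over all probes (adjusted p = 0.0739) and the deposited scores (adjusted p = 0.055), and the difference of CKS2 was lost with no detection filter.

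EtOH left both subunits uncalled. In SUDHL-4, CKS2 read 5.11, 4.73 and 4.88 with water and 4.60, 4.39 and 4.44 with EtOH (-0.43, SE 0.12, adjusted p = 0.135), with no overlap of the groups. The values of CKS1B there were 4.09, 3.73 and 3.98 with water and 3.95, 3.65 and 3.50 with EtOH (-0.24, SE 0.16, adjusted p = 0.581).

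Among the cyclins, CCNA2, whose protein drives CDK2 and CDK1 through S and G2 phase, read 2.92, 2.71 and 2.92 with DMSO and 2.39, 2.47 and 2.58 with INK128 in SUDHL-4. It fell by 0.37 (SE 0.11, adjusted p = 0.0428), and the call was lost under 12 of 26 refits, 7 of which left out 1 array (highest adjusted p = 0.155, without SUDHL-4 DMSO replicate 3; the others were SUDHL-2 DMSO replicates 2 and 3, SUDHL-2 INK128 replicate 2, SUDHL-4 DMSO replicate 1 and SUDHL-4 INK128 replicates 1 and 2). Cyclin B1 (CCNB1), the partner of CDK1 at mitotic entry, varied widely between arrays and was not called. Its values were 2.76, 1.82 and 2.11 with DMSO and 2.37, 1.80 and 0.60 with INK128 in SUDHL-2 (a log2 fold change of -0.64, SE 0.40, adjusted p = 0.466), and 1.38, 0.94 and 1.48 against 1.37, 1.58 and 2.40 in SUDHL-4 (0.51, SE 0.40, adjusted p = 0.497). CDK1 itself passed no test, with log2 fold changes of -0.38 (INK128) and -0.19 (EtOH) in SUDHL-2 and -0.14 (INK128) and 0.04 (EtOH) in SUDHL-4.

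**Figure D2:**
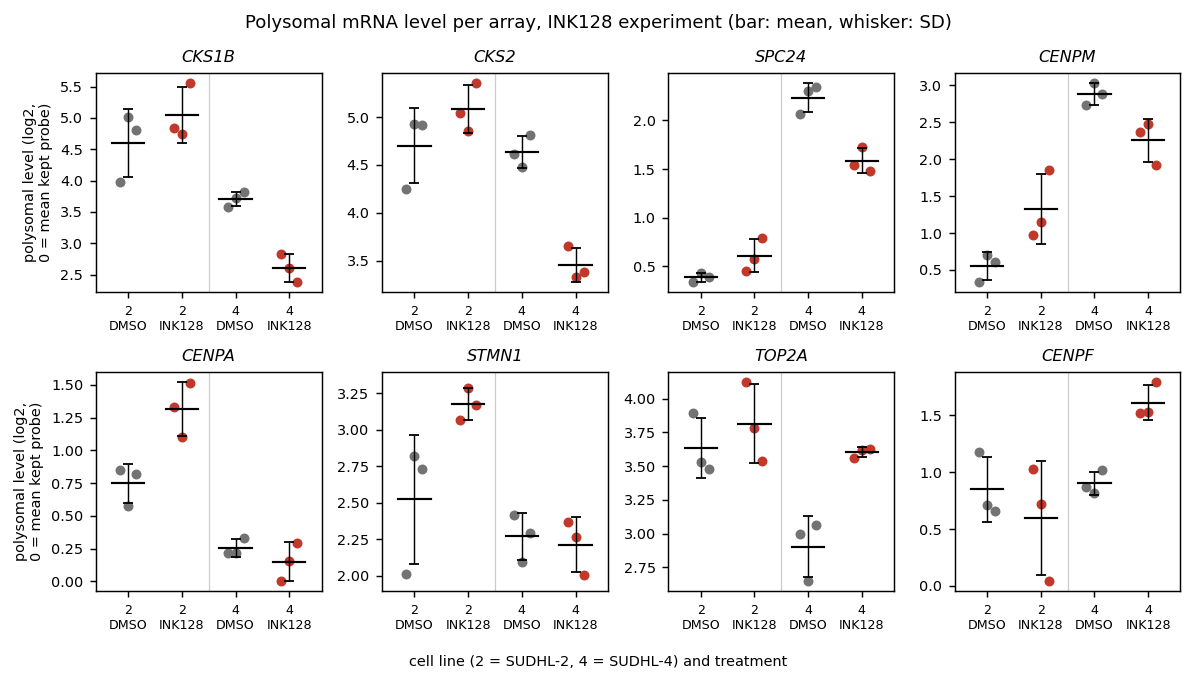
Level (y axis, log2, 0 = mean kept probe of the array) of 8 genes on each array of the INK128 experiment by line and treatment (x axis), with the mean and SD of 3 arrays. CKS1B, CKS2 and SPC24 were lower with INK128 than with DMSO on every SUDHL-4 array, and CENPA was higher on every SUDHL-2 array.

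At the kinetochore, the protein platform that joins a centromere to microtubules, calls went in both directions. SPC24, a subunit of the NDC80 complex that grips the microtubule, read 2.06, 2.30 and 2.34 with DMSO and 1.54, 1.73 and 1.48 with INK128 in SUDHL-4. This fall by 0.65 (SE 0.12, adjusted p = 0.00379) held under all 26 refits and the thresholds of the methods. In SUDHL-2 its values were 0.34, 0.43 and 0.39 with DMSO and 0.45, 0.58 and 0.79 with INK128 (0.22, SE 0.12, adjusted p = 0.396), and the lines differed by 0.87 (SE 0.17, adjusted p = 0.018). That difference was lost without SUDHL-2 DMSO replicate 3, SUDHL-4 DMSO replicate 2 or SUDHL-4 DMSO replicate 3 (highest adjusted p = 0.0614, without the last). The other 3 chains of the complex did not pass the test in SUDHL-4, with SPC25 at -0.54 (adjusted p = 0.168), NUF2 at 0.12 and NDC80 at 0.45.

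EtOH lowered SPC24 in SUDHL-2, from 0.80, 0.94 and 1.02 with water to 0.70 and 0.33 with EtOH. The fall by 0.40 (SE 0.12, adjusted p = 0.0368) was lost under 13 of 25 refits, 6 of which left out 1 array (SUDHL-2 water replicates 2 and 3, SUDHL-2 EtOH replicate 2, SUDHL-4 water replicates 1 and 3 and SUDHL-4 EtOH replicate 2, the highest adjusted p being 0.346 without SUDHL-2 EtOH replicate 2). Blocked on the titles' replicate numbers it was -0.35 (adjusted p = 0.112). In SUDHL-4 the gene read 2.08, 1.93 and 2.12 with water and 1.77, 1.71 and 1.64 with EtOH (-0.34, SE 0.10, adjusted p = 0.172), and the difference between the lines was -0.06 (SE 0.16).

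CENPA, the histone H3 variant that marks centromeres, was the only one of the 58 genes called with INK128 in SUDHL-2. Its values were 0.85, 0.58 and 0.82 with DMSO and 1.33, 1.10 and 1.51 with INK128, a rise of 0.57 (SE 0.13, adjusted p = 0.0362) or 1.48-fold. In SUDHL-4 it read 0.21, 0.21 and 0.33 with DMSO and 0.00, 0.16 and 0.29 with INK128 (-0.10). The SUDHL-2 call was lost under 13 of 26 refits and when any 1 of 8 arrays was left out (all 6 DMSO arrays, SUDHL-2 INK128 replicate 3 and SUDHL-4 INK128 replicate 2, with the highest adjusted p = 0.107 without SUDHL-2 DMSO replicate 2).

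CENPM, a subunit of the inner kinetochore, had fold changes of opposite sign in the lines. With INK128 it read 0.34, 0.71 and 0.61 with DMSO and 0.97, 1.15 and 1.86 with the inhibitor in SUDHL-2 (0.77, SE 0.22, adjusted p = 0.0708), and 2.73, 3.03 and 2.88 against 2.37, 2.48 and 1.93 in SUDHL-4 (-0.62, SE 0.22, adjusted p = 0.0714). Neither passed the test although the groups did not overlap in either line, but the difference between the lines did, at 1.40 (SE 0.31, adjusted p = 0.0249). It was lost under 7 of 25 refits, quantile normalization and no detection filter among them, and without SUDHL-2 DMSO replicate 1 or 3, SUDHL-4 DMSO replicate 2 or 3 or SUDHL-4 INK128 replicate 3 (highest adjusted p = 0.0696, without SUDHL-4 DMSO replicate 2). With EtOH the gene read 1.94, 1.65 and 1.96 with water and 1.56 and 1.21 with EtOH in SUDHL-2 (-0.46, adjusted p = 0.0767), and 3.20, 2.76 and 2.83 against 2.46, 2.34 and 2.12 in SUDHL-4 (-0.62, SE 0.14, adjusted p = 0.0911). The latter was the smallest p of the 58 genes in that comparison and passed when blocked on the titles' replicate numbers (adjusted p = 0.0491). The 3 probes of CENPM gave like values with INK128 but not with EtOH in SUDHL-2 (-0.44, 0.19 and -1.15).

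CENPF, a large coiled-coil protein of the outer kinetochore, rose with INK128 in SUDHL-4 from 0.87, 0.82 and 1.02 to 1.52, 1.53 and 1.79, by 0.71 (SE 0.22, adjusted p = 0.044), or 1.64-fold. In SUDHL-2 it read 1.18, 0.71 and 0.66 with DMSO and 1.03, 0.72 and 0.04 with INK128 (-0.25), and the lines were not shown to differ (-0.96, SE 0.31, adjusted p = 0.105). The SUDHL-4 call was lost under 13 of 26 refits, median centring among them (0.58, adjusted p = 0.0935), and when any 1 of 9 arrays was left out (all 6 of SUDHL-4, SUDHL-2 DMSO replicates 2 and 3 and SUDHL-2 INK128 replicate 2, the highest adjusted p being 0.146 without SUDHL-4 INK128 replicate 3). CENPE, the kinesin that carries chromosomes to the spindle equator, rose with EtOH in SUDHL-2, by 0.39 (SE 0.12, adjusted p = 0.0482). That call was lost under 18 of 25 refits, including each of the 10 that left out 1 array other than SUDHL-2 water replicate 2 (highest adjusted p = 0.322, without SUDHL-2 EtOH replicate 2).

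The smallest p of the 58 genes with EtOH was that of separase. ESPL1, which encodes it, read -0.28, -0.28 and -0.10 with water and 0.49 and 0.46 with EtOH in SUDHL-2, a rise of 0.70 (SE 0.08, adjusted p = 0.000353) or 1.62-fold. Of 25 refits, 1 lost the call (all 23 arrays in 1 fit). In SUDHL-4 the gene read 0.33, 0.42 and 0.35 with water and 0.62, 0.66 and 0.55 with EtOH (0.25, SE 0.07, adjusted p = 0.167), with no overlap in either line. The rise in SUDHL-2 exceeded that in SUDHL-4 by 0.45 (SE 0.11, adjusted p = 0.0398), a difference lost under 14 of 24 refits, 8 of which left out 1 array (highest adjusted p = 0.125, without SUDHL-2 EtOH replicate 1; SUDHL-2 water replicates 2 and 3 and SUDHL-4 EtOH replicate 1 could be left out). Securin (PTTG1), which holds separase in check, stayed at -0.05 and -0.02.

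CDC20, the activator that the spindle checkpoint holds back, responded differently to EtOH in the lines. In SUDHL-2 it read 3.996, 3.968 and 4.310 with water and 4.53 and 4.29 with EtOH (0.32, SE 0.12, adjusted p = 0.108), and in SUDHL-4 4.73, 4.73 and 4.96 against 4.31, 4.43 and 4.33 (-0.45, SE 0.11, adjusted p = 0.098). The difference of 0.77 (SE 0.16, adjusted p = 0.0245) passed the test, and was lost under 6 of 24 refits, among them those without SUDHL-2 water replicate 1, SUDHL-2 EtOH replicate 1, SUDHL-4 water replicate 3 or SUDHL-4 EtOH replicate 3 (highest adjusted p = 0.106, without SUDHL-2 EtOH replicate 1). With INK128 the log2 fold change of CDC20 was -0.35 in SUDHL-2 and -0.36 in SUDHL-4 (adjusted p = 0.467 and 0.341). In SUDHL-2 the gene read 3.78, 3.77 and 3.88 with DMSO and 2.82, 3.66 and 3.90 with INK128, and the groups overlapped. In SUDHL-4 it read 4.90, 4.97 and 4.92 against 4.58, 4.77 and 4.36, with no overlap. CDCA3, an adaptor that helps to clear the mitotic brake WEE1, rose with EtOH in SUDHL-2, by 0.42 (SE 0.11, adjusted p = 0.0215) and stood at -0.23 in SUDHL-4. The call in SUDHL-2 was lost with no detection filter, with each line alone and without SUDHL-2 water replicate 1 or either SUDHL-2 EtOH array (highest adjusted p = 0.115, without replicate 1 of EtOH). The lines differed by 0.64 for CDCA3 (SE 0.14, adjusted p = 0.0289), a difference lost under 8 of 24 refits, among them those without either SUDHL-2 EtOH array, SUDHL-4 water replicate 1 or 3 or SUDHL-4 EtOH replicate 2 or 3 (highest adjusted p = 0.0963, without SUDHL-2 EtOH replicate 1).

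The ubiquitin-conjugating enzymes of the APC/C were called with neither agent in either line. UBE2C, which starts the chains, read 2.71, 2.40 and 2.66 with water and 2.24, 2.35 and 2.26 with EtOH in SUDHL-4 (a log2 fold change of -0.31, SE 0.09, adjusted p = 0.159). UBE2S, which extends them, read -1.51, -1.85 and -1.39 with DMSO and -1.19, -0.91 and -1.28 with INK128 in SUDHL-4 (a log2 fold change of 0.46, SE 0.15, adjusted p = 0.0527). With EtOH there it read -1.95, -1.27 and -1.41 against -0.95, -1.30 and -1.20 with water (-0.39, adjusted p = 0.316), and was detected on 2 of the 3 EtOH arrays. In SUDHL-2 the gene was not well above background on either EtOH array and on 2 of 3 water arrays, and no fold is given.

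**Figure D3:**
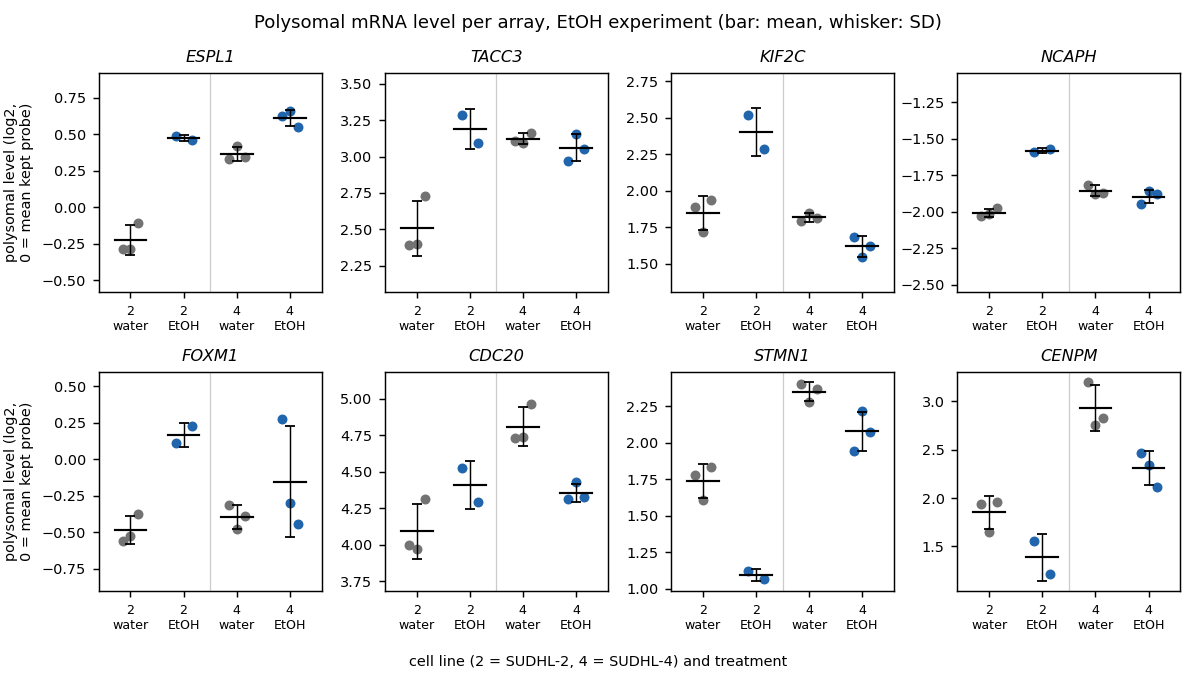
Level (y axis, log2, 0 = mean kept probe of the array) of 8 genes on each array of the EtOH experiment by line and treatment (x axis), with the mean and SD of 3 arrays (2 for SUDHL-2 with EtOH). ESPL1, TACC3, KIF2C, NCAPH and FOXM1 were higher with EtOH than with water on every SUDHL-2 array, and STMN1 and CENPM were lower.

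The microtubule proteins of the spindle held a rise and a fall with EtOH in SUDHL-2. TACC3, which with clathrin cross-links kinetochore fibres, read 2.39, 2.40 and 2.73 with water and 3.28 and 3.09 with EtOH, a rise of 0.68 (SE 0.11, adjusted p = 0.00234) or 1.60-fold that held under all 25 refits and the thresholds of the methods. In SUDHL-4 it read 3.11, 3.10 and 3.16 with water and 2.97, 3.15 and 3.05 with EtOH (-0.06), and the lines differed by 0.74 (SE 0.15, adjusted p = 0.02). That difference was lost under 5 of 24 refits, among them those without SUDHL-2 EtOH replicate 1, SUDHL-4 water replicate 3 or SUDHL-4 EtOH replicate 3 (highest adjusted p = 0.0869, without the first).

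STMN1, stathmin, which takes tubulin out of microtubules, fell with EtOH in SUDHL-2 from 1.78, 1.61 and 1.83 to 1.12 and 1.07, by 0.65 (SE 0.10, adjusted p = 0.00155). The value is the mean of 2 probes that disagreed, since 1 stood at 0.17 (adjusted p = 0.206) and the other fell by 1.46. With the brightest probe alone the gene read 0.17 (adjusted p = 0.214), the opposite sign. With INK128 in SUDHL-2 it read 2.01, 2.82 and 2.73 with DMSO and 3.07, 3.29 and 3.17 with the inhibitor (0.65, SE 0.19, adjusted p = 0.0838), both probes being higher (0.81 and 0.50). In SUDHL-4 it was at -0.06 with INK128 and -0.27 with EtOH.

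KIF2C, the kinesin that depolymerises microtubules to correct wrong attachments, had the largest difference between lines by its test with EtOH. It read 1.89, 1.72 and 1.93 with water and 2.52 and 2.28 with EtOH in SUDHL-2 (a log2 fold change of 0.55, SE 0.10, adjusted p = 0.003), and 1.79, 1.85 and 1.81 against 1.68, 1.54 and 1.62 in SUDHL-4 (-0.20, SE 0.09, adjusted p = 0.328). The difference was 0.75 (SE 0.13, adjusted p = 0.00928), and it held in every fit that left out 1 array. With all 23 arrays in 1 fit both the difference (adjusted p = 0.113) and the SUDHL-2 call (adjusted p = 0.054) were lost. KIF4A, a chromosome-bound kinesin, rose in SUDHL-2 too, by 0.44 (SE 0.10, adjusted p = 0.0153), a call lost without SUDHL-2 EtOH replicate 2 (adjusted p = 0.148) and with no detection filter. KIF23, the motor of centralspindlin at the division site, fell by 0.32 (SE 0.08, adjusted p = 0.0179) with its probes apart (-0.58 and -0.06). The call was lost under 6 of 25 refits, among them the brightest probe (-0.06, adjusted p = 0.826), all 23 arrays in 1 fit (adjusted p = 0.3001) and leaving out SUDHL-2 EtOH replicate 1 (adjusted p = 0.148). KIF20A, which carries the chromosomal passenger complex to the midzone, was called in neither line (0.34 and -0.27), and the difference of 0.61 (SE 0.15, adjusted p = 0.0432) was lost under 16 of 24 refits, 9 of which left out 1 array (all but replicate 1 of water in each line, highest adjusted p = 0.131, without SUDHL-2 EtOH replicate 2). KIF4A differed by 0.54 (SE 0.14, adjusted p = 0.0486), which no fit that left out 1 array kept (highest adjusted p = 0.175, without SUDHL-2 EtOH replicate 2), nor did the replicate block by sample names (adjusted p = 0.0531).

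In total 8 of the 58 genes differed between the lines with EtOH, all with the higher value in SUDHL-2, where 2.97% of all entries had the higher value in SUDHL-2 and 2.34% the lower (5.31% in all). With the replicate number as a block, where no share of all entries was counted, this count was 14 (titles) and 13 (sample names). It was 5 without SUDHL-2 water replicate 1 or SUDHL-4 water replicate 2, 4 without SUDHL-4 water replicate 1 or SUDHL-4 EtOH replicate 2, 3 without SUDHL-2 EtOH replicate 2, and 1 without SUDHL-2 EtOH replicate 1, SUDHL-4 water replicate 3 or SUDHL-4 EtOH replicate 3. Median centring gave 11, all higher in SUDHL-2, and took the share of higher values among all entries called from 55.9% to 68.6%.

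**Figure D4:**
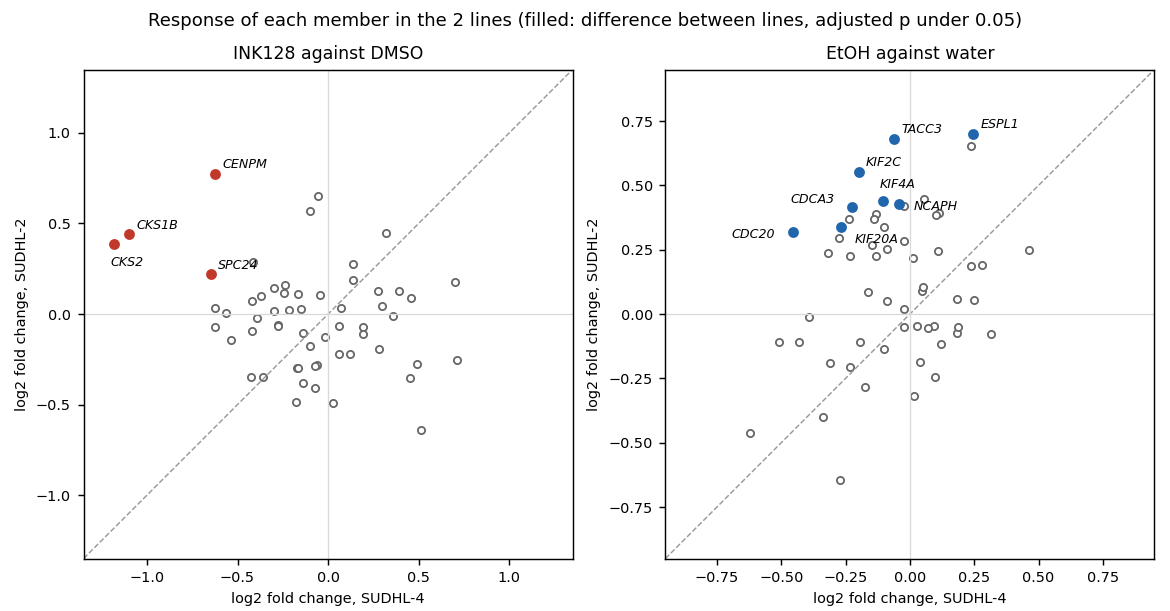
Log2 fold change of each of the 58 genes in SUDHL-4 (x axis) against that in SUDHL-2 (y axis) for INK128 (left) and EtOH (right), with the dashed line marking equal values. Filled, named points differed between the lines at an adjusted p under 0.05, and all 4 with INK128 and all 8 with EtOH lie above the line.

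The chromosomal passenger complex had fold changes of 1 sign in 2 of the comparisons. Its members AURKB, BIRC5, INCENP and CDCA8, which correct attachments and trigger cytokinesis, were all above 0 with EtOH in SUDHL-2 (0.30 to 0.45), and AURKB (0.39, adjusted p = 0.048) and CDCA8 (0.42, SE 0.10, adjusted p = 0.0155) passed the test. With INK128 in SUDHL-4 all 4 lay below 0 (-0.56 to -0.21) and none passed, AURKB being lowest (-0.56, adjusted p = 0.0773). Both sets of signs were kept under all 4 scalings. Other roles had the same trait. PLK1, AURKA and NEK2, the mitotic kinases, were all above 0 with EtOH in SUDHL-2 and all below 0 with EtOH in SUDHL-4. FOXM1 and MYBL2, the transcription factors, were above 0 with EtOH in SUDHL-2 and below 0 with INK128 in SUDHL-4. These signs too were kept under all 4 scalings. For MYBL2 with EtOH in SUDHL-2, however, the value was only 0.05 (0.01 under a Z-score over all probes). It lay near the detection limit and the groups overlapped. The EtOH call of AURKB was lost under 16 of 25 refits, 9 of which left out 1 array (all but SUDHL-2 water replicate 3 and SUDHL-4 EtOH replicate 1, highest adjusted p = 0.194, without SUDHL-2 EtOH replicate 1), and that of CDCA8 without SUDHL-2 EtOH replicate 1 (adjusted p = 0.153), with each line alone and with all 23 arrays in 1 fit. The kinases PLK1, AURKA and NEK2 had no call, nor did the checkpoint genes BUB1, BUB1B, BUB3, MAD2L1 and TTK, whose fold changes ran from -0.41 to 0.27 over the 4 comparisons. For cytokinesis, PRC1, which bundles the antiparallel microtubules of the midzone, rose with EtOH in SUDHL-2, by 0.38 (SE 0.12, adjusted p = 0.0484). That call was lost under 15 of 25 refits, 8 of which left out 1 array (highest adjusted p = 0.235, without SUDHL-2 EtOH replicate 1; SUDHL-2 water replicate 3, SUDHL-4 water replicate 1 and SUDHL-4 EtOH replicate 1 could be left out). ECT2, ANLN and RACGAP1 were not called.

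Of the proteins that shape chromosomes, TOP2A, the topoisomerase that untangles sister DNA, rose with INK128 in SUDHL-4 from 2.997, 2.648 and 3.066 to 3.56, 3.62 and 3.63, by 0.70 (SE 0.17, adjusted p = 0.0138) or 1.62-fold. The call was lost under median centring (0.51, adjusted p = 0.172) and without SUDHL-4 DMSO replicate 2 (0.57, adjusted p = 0.0666). In SUDHL-2 the gene read 3.89, 3.53 and 3.48 with DMSO and 4.12, 3.78 and 3.54 with INK128 (0.18). The condensin subunit NCAPH rose with EtOH in SUDHL-2 from -2.03, -2.02 and -1.98 to -1.59 and -1.57, by 0.43 (SE 0.07, adjusted p = 0.00242), a small change close to the detection limit. It held under the 24 refits it entered, a filter for probes detected on every array having removed the gene, but was too small for the thresholds of the methods. In SUDHL-4 it read -1.81, -1.88 and -1.87 with water and -1.95, -1.86 and -1.88 with EtOH (-0.04), and the lines differed by 0.47 (SE 0.10, adjusted p = 0.0205), a difference lost under 7 of 23 refits, among them those without either SUDHL-2 EtOH array, SUDHL-4 water replicate 1 or 3 or SUDHL-4 EtOH replicate 3 (highest adjusted p = 0.0691, without SUDHL-2 EtOH replicate 2). Another condensin subunit, NCAPD2, read 2.17, 1.75 and 1.75 with DMSO and 2.13, 2.33 and 2.55 with INK128 in SUDHL-2 (a log2 fold change of 0.45, SE 0.14, adjusted p = 0.109). In SUDHL-4 it read 3.26, 3.44 and 3.29 against 3.60, 3.71 and 3.64 (0.32, adjusted p = 0.171).

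Of the transcription factors of the late cell cycle, FOXM1 rose with EtOH in SUDHL-2 and MYBL2 fell with INK128 in SUDHL-4. FOXM1 read -0.56, -0.53 and -0.38 with water and 0.11 and 0.23 with EtOH in SUDHL-2, a rise of 0.65 (SE 0.17, adjusted p = 0.0229) or 1.57-fold on both probes (0.59 and 0.72). It was lost under 7 of 25 refits, among them leaving out SUDHL-2 water replicate 1 or 2 or either EtOH array of that line (highest adjusted p = 0.151, without EtOH replicate 2). In SUDHL-4 it read -0.21, 0.61 and 0.02 with DMSO and -0.30, -0.61 and -0.55 with INK128 (-0.62, SE 0.20, adjusted p = 0.0551), and -0.32, -0.48 and -0.39 with water against 0.27, -0.30 and -0.44 with EtOH (0.24). MYBL2 read -1.44, -0.78 and -1.28 with DMSO and -1.87, -1.75 and -1.75 with INK128 in SUDHL-4, where it was detected on 2 of 3 INK128 arrays. It fell by 0.62 (SE 0.15, adjusted p = 0.0142), a call lost without SUDHL-4 INK128 replicate 1 (adjusted p = 0.0546) and with no detection filter (adjusted p = 0.0606).

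EtOH and INK128 were compared in the same line as the difference of their responses, in which agent, vehicle and exposure time (48 h against 24 h) cannot be told apart. In SUDHL-2 the response to EtOH was below that to INK128 for STMN1 (-1.30, SE 0.24, adjusted p = 0.00207), CENPM (-1.24, SE 0.29, adjusted p = 0.0141) and SPC24 (-0.62, SE 0.17, adjusted p = 0.032), and above it for NCAPH (0.60, SE 0.14, adjusted p = 0.0145). These were 4 of 58 genes, where 2.69% of all entries were higher with EtOH and 3.51% lower (6.2% in all). With the brightest probe in place of the mean, STMN1 (-0.64, adjusted p = 0.0999) and CENPM (-0.59, adjusted p = 0.331) lost their calls. Without SUDHL-2 EtOH replicate 2 the count was 1, STMN1 alone (adjusted p = 0.0189), and NCAPH was also lost without replicate 1 (adjusted p = 0.0516), with median centring and with no detection filter. SPC24 was lost under 13 of 35 refits, the replicate block (adjusted p = 0.104) and SUDHL-2 DMSO replicates 1 and 3, INK128 replicate 3 and water replicates 2 and 3 among what was changed or left out (highest adjusted p = 0.267, without SUDHL-2 EtOH replicate 2).

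In SUDHL-4 the response to EtOH was below that to INK128 for UBE2S (-0.85, SE 0.23, adjusted p = 0.0226) and CENPF (-0.86, SE 0.26, adjusted p = 0.0465) and above it for FOXM1 (0.86, SE 0.27, adjusted p = 0.0485). These were 3 of 58, where 4.51% of all entries were higher and 4.74% lower (9.25% in all). UBE2S was lost under 7 of 34 refits, 4 of which left out 1 array (SUDHL-4 DMSO replicate 2, INK128 replicate 2, water replicate 1 or EtOH replicate 1, highest adjusted p = 0.0726). CENPF was lost under 21 and FOXM1 under 26 of 35, when 17 and 18 of the 23 arrays were left out in turn (highest adjusted p = 0.101, without SUDHL-4 EtOH replicate 2, and 0.142, without SUDHL-4 EtOH replicate 1). With the replicate block of the titles UBE2S stood at an adjusted p of 0.0662 and FOXM1 at 0.0648. The count of 3 became 0 without SUDHL-4 INK128 replicate 2 or SUDHL-4 EtOH replicate 1 and 5 without SUDHL-2 INK128 replicate 1 or 3. It became 1 without SUDHL-2 DMSO replicate 3, SUDHL-2 INK128 replicate 2, SUDHL-4 DMSO replicate 2 or 3, SUDHL-2 water replicate 1 or 3, either SUDHL-2 EtOH array, any SUDHL-4 water array or SUDHL-4 EtOH replicate 2. Under median centring 2 higher and 2 lower were called in SUDHL-2 and 2 higher in SUDHL-4, and the share of higher values among all entries called went from 43.4% to 54.2% and from 48.7% to 65.5%.

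The vehicle controls of the lines held these mRNAs at different levels in their polysomes, and the 2 experiments differed in which line had more of the higher values. With DMSO, 31 of the 58 genes were higher in SUDHL-2 and 15 in SUDHL-4, against 26.9% and 29.1% of all entries (56.1% in all), with a median difference of 0.62 (all entries -0.08). With water 10 were higher in SUDHL-2 and 25 in SUDHL-4, against 27.5% and 38.3% of all entries (65.9% in all), with a median of -0.17 (all entries -0.11). Median centring moved the median of all entries to -0.25 with water and gave 7 higher and 27 lower there. Genes with the same sign in both included CDCA3 (-1.51 with DMSO and -1.48 with water), SPC24 (-1.85 and -1.12), CENPM (-2.33 and -1.08), CDCA8 (-1.61 and -0.92) and NCAPD2 (-1.44 and -0.97), all higher in SUDHL-4, and BUB1B (1.71 and 1.38), AURKA (1.30 and 0.78) and HMMR (2.00 and 0.93), all higher in SUDHL-2. TOP2A was higher in SUDHL-2 with DMSO (0.73, SE 0.17, adjusted p = 0.00228) and lower with water (-0.31, SE 0.12, adjusted p = 0.035).

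The spread between arrays of 1 group was itself uneven. The median level of the 58 genes on an array lay between 1.66 and 2.20 in SUDHL-2 with DMSO and between 1.48 and 2.08 with INK128, wider than the 1.02 to 1.15 of SUDHL-4 with water. The median SE of the 58 fold changes was 0.20 in the INK128 experiment, against 0.13 with EtOH in SUDHL-2 and 0.12 in SUDHL-4. Array medians stood beside the number of probes detected in some groups, since the array with the most, SUDHL-2 DMSO replicate 1 (17098 probes), had the highest median (2.20) and SUDHL-2 water replicate 2 (16912 probes) the highest of its group (1.55). Of the SUDHL-2 arrays of the INK128 experiment, INK128 replicate 3 had the lowest median (1.48) and also the lowest levels of CCNB1 (0.60), NDC80 (0.56) and CENPF (0.04). It was not low for all genes. Of the same arrays it had the highest levels of CKS1B (5.55), CKS2 (5.35), CENPM (1.86), CENPA (1.51) and SPC24 (0.79). The part of array quality in these values was not tested.

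**Figure D5:**
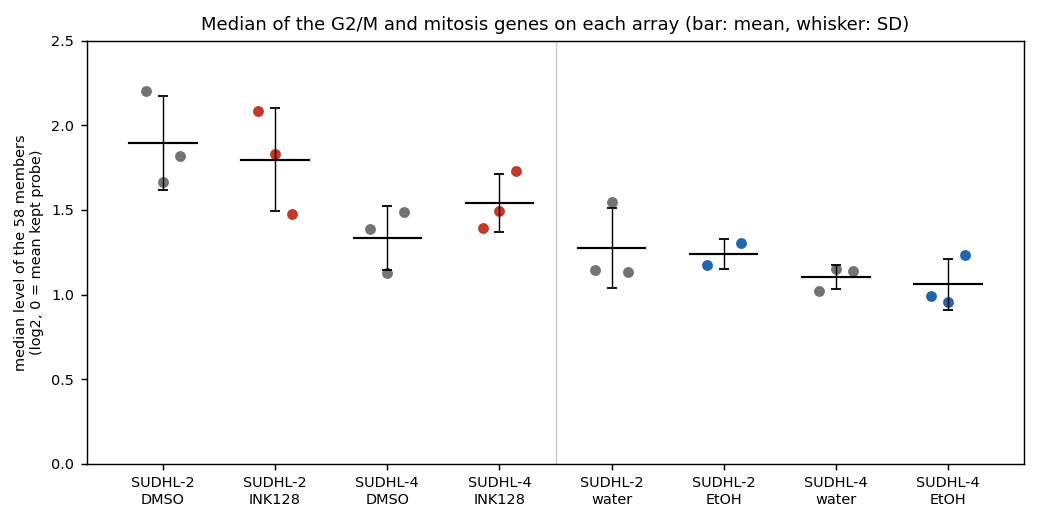
Median level of the 58 genes (y axis, log2, 0 = mean kept probe of the array) on each of the 23 arrays by line and treatment (x axis), with the mean and SD of each group. The INK128 and DMSO arrays of SUDHL-2 spread from 1.48 to 2.20, and no treated group stood clear of its control. The group mean was higher with INK128 in SUDHL-4 (1.54 against 1.33) and lower with EtOH in SUDHL-2 (1.24 against 1.27). Both are opposite in sign to the median fold changes there (-0.12 and 0.15), while the signs were the same in the other comparisons.

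Other genes of the same processes were counted from lists, beside 8.27% of all entries higher and 7.17% lower with INK128 in SUDHL-4, 8.94% higher and 7.24% lower with EtOH in SUDHL-2, and 2.15% higher with INK128 in SUDHL-2. No list was tested against these shares, and the lists were chosen with earlier results of these data known. Of 65 measured further mitotic genes of 69 listed, 1 rose (1.54%) and 10 fell (15.4%) with INK128 in SUDHL-4 (median -0.22), among them TRIP13, a remodeller of checkpoint proteins (-0.69, SE 0.11, adjusted p = 0.00137), CENPO of the inner kinetochore (-0.76, adjusted p = 0.000744) and the kinetochore linker ZWINT (-0.63, adjusted p = 0.00247). With EtOH in SUDHL-2, 10 rose (15.4%) and 5 fell (7.69%; median 0.14), and in the other 2 comparisons 1 rose (INK128, SUDHL-2) and none was called (EtOH, SUDHL-4). Of the 15 measured core APC/C genes of 16 listed, 2 rose with INK128 in SUDHL-2, ANAPC5 among them (0.68, SE 0.16, adjusted p = 0.039), and 2 fell with EtOH there, ANAPC7 (-1.11, SE 0.18, adjusted p = 0.00203) and ANAPC15 (-0.56, adjusted p = 0.0109).

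Of 10 measured cohesin genes of 12 listed, 3 rose with INK128 in SUDHL-4, against 8.27% of all entries (median 0.51), RAD21, the ring subunit that separase cuts, by 0.68 (SE 0.17, adjusted p = 0.0154). In SUDHL-2 with EtOH 2 of the 10 fell, against 7.24% of all entries, RAD21 by 0.55 (adjusted p = 0.0235) and the cohesin release factor WAPL by 0.81 (adjusted p = 0.00313). Of the tubulin genes, 3 of 13 measured (14 listed, 23.1% of those measured) fell with INK128 in SUDHL-4, against 7.17% of all entries, TUBG1 by 1.01 (SE 0.15, adjusted p = 0.000865), and 4 (30.8%) rose with EtOH in SUDHL-2, against 8.94%, TUBA4A by 0.67 (adjusted p = 0.00295). Of the 16 DREAM and MuvB genes, all measured, RBL2, the pocket protein that represses cell cycle genes in resting cells, rose with INK128 in both lines. The SUDHL-2 value was 0.59 (SE 0.12, adjusted p = 0.019) on the log2 scale, and that of SUDHL-4 was 1.03 (SE 0.12, adjusted p = 0.000147). With EtOH in SUDHL-2, 4 of the 16 fell, against 7.24% of all entries. RB1, which the list holds though it is not a subunit of DREAM or MuvB, fell by 1.03 (SE 0.20, adjusted p = 0.00608). The MuvB subunit LIN52 fell by 0.55 (adjusted p = 0.00289). The G1 and S phase genes (55 measured of 58) had 2 higher (3.64%) and 8 lower (14.5%) with INK128 in SUDHL-4 (median -0.29), ORC1 of the origin recognition complex falling by 1.09 (adjusted p = 0.000684), and 8 higher (14.5%) and 7 lower (12.7%) with EtOH in SUDHL-2 (median 0.06), where the ribonucleotide reductase subunit RRM2 fell by 1.99 (SE 0.30, adjusted p = 0.00146).

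In 3 of the 4 treatment comparisons the fold changes of the 58 genes went with the genomic span of the gene, from the first to the last base of the RefSeq gene. Spearman's rho across the 58 genes was 0.40 with INK128 in SUDHL-4 and 0.47 with EtOH in SUDHL-4, against 0.24 and 0.26 across 10540 genes, and -0.43 with INK128 in SUDHL-2, against -0.03. With EtOH in SUDHL-2 it was -0.02, against 0.04. In SUDHL-4 the genes that fell with INK128 included the short CKS1B (4.57 kb), CKS2 (5.51 kb), CCNA2 (7.44 kb) and SPC24 (10.3 kb) but also MYBL2 (49.4 kb), and those that rose were TOP2A (29.4 kb) and CENPF (61.4 kb). These correlations are across genes, which are not independent and share arrays, and the span counts introns, which the polysomal mRNA does not carry.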

How the data were processed

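Polysomal RNA of the 23 cultures was hybridised to HumanHT-12 BeadChips (V4.0 per the labels, another version per the study's methods), and the authors exported the signals with GenomeStudio 1.9.0. The deposited table holds a linear signal intensity and a detection p-value for each probe and array, and the authors also deposited a score table of Z-scores, used here only as an alternative. Arrays give no read depth.

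Of 47323 probes listed, 92 had no values. Probes with a detection p of 0.02 or less on all arrays of some group were kept (18136), floored at the lowest detected signal of their array (59.4 to 91.4) and put on the log2 scale. Each array was Z-scored and rescaled with the mean SD (2.03), and probes of 1 gene symbol were averaged. This gave 14636 entries (10546 named genes). Each experiment was fitted alone with lmFit and eBayes of limma 3.58.1 (R 4.3.3), both lines sharing the spread. EtOH against INK128 was tested in 1 fit of all 23 arrays. P-values were adjusted by Benjamini-Hochberg over all entries, with calls at 0.05. The fitting steps were tested on simulated data. Figures were drawn with matplotlib 3.10.9 (Python 3.11.15).

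The members and lists were chosen with earlier results of these data known. Values on every array were given for the 4 genes with the smallest p of each treatment comparison and the 3 of each difference, with further genes of a role named as examples, among them CCNA2, CCNB1 and MYBL2, which were chosen for their values. Deviations of same-numbered arrays correlated at 0.14 to 0.55 in the 5 EtOH pairs of the titles, so the block is given beside EtOH results. Titles and sample names disagree on some of these numbers, and by the latter 1 SUDHL-4 pair correlated at 0.04. Alternatives were quantile normalization, median centring, normexp background with an offset of 16, no floor, no or a stricter detection filter, a Z-score over all probes, the deposited scores, the brightest probe or each probe apart, a trended and robust moderation, the thresholds of the methods (an unadjusted p under 0.05, a Z-ratio beyond 1.5 and a false discovery rate of 0.3 or less), other sets of arrays in the fit, the replicate block and leaving out each array.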

Additional observations from a re-analysis of the deposited data

Results flagged for a closer look

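The response to INK128 differed between the lines for 4 of the 58 genes by the test of the difference itself (limma, Benjamini-Hochberg over all entries), the values being SUDHL-2 minus SUDHL-4 on the log2 scale. The difference was 1.56 for CKS2 (adjusted p = 0.0109), 0.87 for SPC24 (adjusted p = 0.018), 1.40 for CENPM (adjusted p = 0.0249) and 1.54 for CKS1B (adjusted p = 0.0363). CKS2, CKS1B and SPC24 were called lower in SUDHL-4 and not called in SUDHL-2, while CENPM was called in neither line.

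The response to EtOH differed between the lines for 8 genes. The difference was 0.75 for KIF2C (adjusted p = 0.00928), 0.74 for TACC3 (adjusted p = 0.02), 0.47 for NCAPH (adjusted p = 0.0205), 0.77 for CDC20 (adjusted p = 0.0245), 0.64 for CDCA3 (adjusted p = 0.0289), 0.45 for ESPL1 (adjusted p = 0.0398), 0.61 for KIF20A (adjusted p = 0.0432) and 0.54 for KIF4A (adjusted p = 0.0486). All but CDC20 and KIF20A were also called higher with EtOH in SUDHL-2. SUDHL-2 with EtOH rests on 2 arrays.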

How the results depend on the processing

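Where an alternative moved a count of genes called by over 1.5 times, the counts were as follows, and the cause was not tested. For INK128 in SUDHL-2, as reported 1, the count was 0 with median centring, no detection filter, trended and robust moderation or each line alone, 3 with each probe kept apart or the thresholds of the methods, and 4 with all 23 arrays in 1 fit. For INK128 in SUDHL-4 (7) it was 13 with each line alone or all 23 arrays. For EtOH in SUDHL-2 (14) it was 7 with no detection filter or each line alone, 5 with the thresholds of the methods and 6 with all 23 arrays. For EtOH in SUDHL-4 (0) it was 9 with the thresholds of the methods, which use no adjusted p under 0.05. Their floor on size follows the spread of each comparison, and a log2 fold change of -0.28 (BIRC5) passed there. The line difference with INK128 (4) gave 1 with no detection filter and 8 with all 23 arrays. That with EtOH (8) gave 5 with normexp background or trended and robust moderation, 4 with probes detected on every array or the deposited scores, 3 with no filter and 1 with all 23 arrays. EtOH minus INK128 in SUDHL-2 (4) gave 2 with probes detected on every array or the brightest probe, and in SUDHL-4 (3) gave 1 with no detection filter.

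With the replicate number as a block, EtOH gave 22 calls in SUDHL-2 by the sample names (20 by the titles), 1 in SUDHL-4 by the titles, and line differences of 14 by the titles and 13 by the sample names. Same-numbered INK128 arrays correlated between -0.21 and 0.47 in SUDHL-2 and between -0.30 and 0.22 in SUDHL-4. With so few arrays in a group these values cannot show whether the numbers mark pairs. For INK128 the block gave 3 calls in SUDHL-2, 9 in SUDHL-4 and 5 line differences. For EtOH minus INK128 it gave 3 calls in SUDHL-2 and 4 in SUDHL-4.

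Leaving out each array in turn gave 0 to 3 calls with INK128 in SUDHL-2, 4 to 14 in SUDHL-4, 7 to 14 with EtOH in SUDHL-2, 0 to 1 in SUDHL-4, 1 to 6 line differences with INK128, 1 to 9 with EtOH, 1 to 5 for EtOH minus INK128 in SUDHL-2, with 0 to 5 in SUDHL-4. The counts of genes differing between the lines' vehicle controls lay between 36 and 48 with DMSO and between 29 and 35 with water. Among the genes given with values on every array, STMN1 with EtOH in SUDHL-2 was the one call that changed sign, to 0.17 (adjusted p = 0.214) with the brightest probe. Fold changes near 0 also changed sign with the scaling: with INK128, 28 of the 58 lay above 0 in SUDHL-2 and 21 in SUDHL-4, but 23 and 15 under median centring. The calls of CKS2 and SPC24 with INK128 in SUDHL-4 and of TACC3 with EtOH in SUDHL-2 held under every alternative run. That of NCAPH held except under the thresholds of the methods. Of the values of single genes under the alternatives, 949 kept their side of the threshold, 307 lost and 11 gained a call. MYBL2, NCAPH and UBE2S lay near the detection limit, where a floor hides part of a change.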

Other observations

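The vehicle controls of the 2 experiments also differed in these genes, though vehicle, exposure time and experiment cannot be told apart between them. In SUDHL-2, 42 of the 58 genes had a higher mean level with DMSO than with water, with a median difference of 0.82 on the log2 scale (all entries 0.10, 55 G1 and S phase genes 0.04). The largest differences were those of DLGAP5 (1.95), a spindle assembly factor, the microtubule-binding protein HMMR (1.75), the kinesin KIF15 (1.75), ECT2 (1.73), which activates RhoA for cytokinesis, and NDC80 (1.50), while CENPM (-1.30), CDCA5 (-0.76), the cohesin protector sororin, and AURKB (-0.75) went the other way. In SUDHL-4 the median was 0.12 with 35 of 58 genes higher (all entries -0.02, G1 and S phase genes 0.10). These values carry no test.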
